A study of Mus musculus with 12 samples.

Results

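The heat shock proteins and co-chaperones described here are 44 genes, found by their symbols in a deposited expression table of 48034 genes. They comprise the heat shock factors Hsf1 and Hsf2, 10 genes of the HSP70 family, 9 of HSP90 and its partners, 4 small heat shock proteins, 7 J-domain proteins, 5 nucleotide exchange and BAG factors, 2 subunits of the mitochondrial chaperonin and 5 of the cytosolic chaperonin CCT. The set goes by the name of cytosolic chaperones, but Hspa9, Hspd1, Hspe1 and Trap1 encode mitochondrial proteins and Hspa13 a protein of microsomes. RNA was sequenced from mouse IMCD3 cells, epithelial cells that go back to the inner medulla's collecting ducts, in the single subclone 53a. In this subclone mifepristone induces a dominant-negative mutant of a tubular transcription factor, as known of the study. The 12 libraries form 4 groups of 3, labelled A, B and C. The groups received mifepristone with 100 mM added NaCl, mifepristone without added NaCl, vehicle with 100 mM added NaCl, or vehicle without added NaCl. All 4 groups carry the inducible mutant, so an action of mifepristone itself and that of the mutant cannot be told apart. The labels used here give neither the vehicle's identity nor the length of treatment, and do not state if replicates were cultured separately. The p-values therefore measure only how far these libraries spread, which may be technical.

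Heat shock proteins keep other proteins folded. HSP70 chaperones bind exposed hydrophobic stretches in a cycle that J-domain proteins start and that exchange factors, among them HSP110 and BAG proteins, end by releasing the nucleotide. HSP90 acts later on folding-ready clients such as kinases and steroid receptors, small heat shock proteins hold unfolded proteins without using ATP, and CCT folds actin and tubulin. Under stress the transcription factor HSF1 binds heat shock elements, inverted repeats of a short unit, in the promoters of many of these genes. Cells of the renal inner medulla live in high NaCl and urea, and HSP70 induction by hypertonicity there has been tied to both HSF1 and the tonicity factor NFAT5. Hspa4l was first described as an osmotic stress protein of the mouse renal medulla.

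Levels are the authors' FPKM values (fragments per kilobase of transcript, scaled to library size), and reads recovered from them summed to between 41940955 and 49270776 per library. A gene entered the test with at least 1 FPKM in at least 3 libraries, which 14044 genes and 43 of the 44 chaperone genes met. A gene was called where limma on log2(FPKM + 0.5), fitted over all 14044 genes, gave a Benjamini-Hochberg adjusted p under 0.05, and log2 fold changes on this scale understate the change of low genes. Epithelial markers were expressed (7 of 7 tested). Their sums were 797 to 840 FPKM with mifepristone and NaCl and 969 to 1130 with mifepristone alone. With vehicle they were 634 to 662 with NaCl and 814 to 872 without it. Cdh1, Epcam, Krt8, Krt18 and Cldn7 were called lower with NaCl in both treatments, Krt19 lower in vehicle cells only, and Cldn4 higher in both. Of 12 collecting duct markers, 9, among them Aqp2, Avpr2 and Gata3, stayed under 1 FPKM in every library. The 12 summed to 11.4 to 13 FPKM with mifepristone and NaCl, 11 to 11.8 with mifepristone alone, 3.33 to 3.53 with vehicle and NaCl, and 4.71 to 5.10 with vehicle alone. With mifepristone most of the sum was Hsd11b2 (means of 9.54 FPKM with NaCl and 7.90 without it). Of the 3 tested, Hsd11b2 and Scnn1a were called higher with mifepristone in both salt conditions. Slc14a2 was called lower in both (0.281 and 0.348 FPKM with mifepristone, 1.69 and 2.23 with vehicle, with and without NaCl). Of the intercalated cell markers only Slc26a4 was tested, and it was called higher with mifepristone in both salt conditions. Of the proximal tubule markers only Lrp2 was tested, and it was called lower in both. Fibroblast, endothelial and leukocyte markers (3 of each) all lay under 1 FPKM in every library. In GENCODE M21, 12 of the 44 genes share exon bases with a gene on the opposite strand, whose reads cannot be told apart if counting ignored strand. In bulk RNA, fewer cells of a kind and less RNA per cell cannot be told apart. Deviations from the group mean ran along transcript length in most libraries, with Spearman rho across the tested genes from -0.52 in mifepristone C to 0.46 in mifepristone A, and vehicle A at -0.45. Mifepristone C was the highest of its group for 36 of the 43 tested chaperone genes and vehicle A for 33. The part of these trends in the results below was not tested, beyond repeating the fits without both libraries.

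The level order of the genes in untreated cells was led by Hspa8, the constitutive HSP70, at 705 ± 13.3 FPKM (SD, n = 3, as for all group means here). It was followed by Hsp90ab1, the constitutive HSP90, at 458 FPKM, by Hsp90aa1, its inducible counterpart, at 344 FPKM, and by Cryab, which encodes the small heat shock protein alpha B-crystallin, at 232 FPKM. Each of these 4 lay above the next in all 3 vehicle libraries. The inducible HSP70 genes stood much lower, with Hspa1b at 39.5 FPKM and Hspa1a at 14.8 FPKM, and Bag3 (6.18 FPKM) and Dnajb4 (4.91 FPKM) closed the order of tested genes. Dnaja4, a J-domain gene, missed the minimum and was not tested. It had 40 to 45 reads per library with mifepristone and NaCl, 27 to 33 with mifepristone alone, 10 to 20 with vehicle and NaCl, and 15 to 19 with vehicle alone. Its reads with mifepristone thus lay above those with vehicle in both salt conditions. Dnaja4 shares 1581 of its 3589 exon bases with Wdr61 on the opposite strand, whose reads cannot be told apart if counting ignored strand. All 44 genes together took 1.52% of the reads with mifepristone and NaCl, 1.17% with mifepristone alone, 1.34% with vehicle and NaCl, and 1.20% with vehicle alone.

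**Figure D1:**
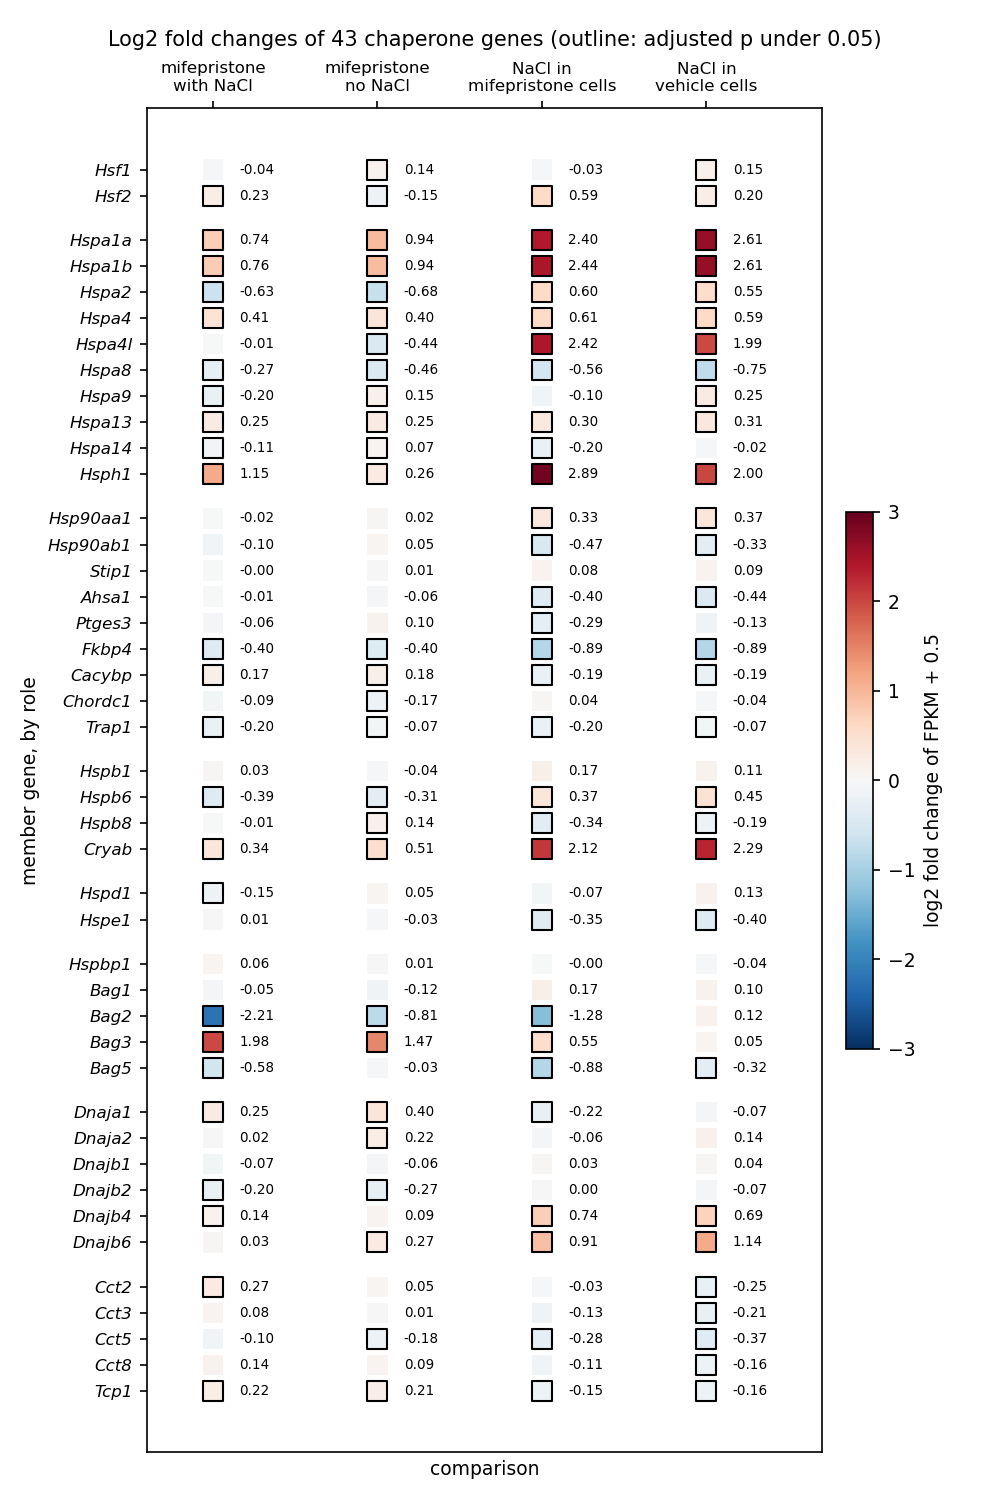
Log2 fold changes of FPKM + 0.5 for the 43 tested genes (rows, grouped by role) in 4 comparisons (columns), with the value printed beside each square, red for higher and blue for lower, and a black outline for an adjusted p under 0.05. The deepest reds are those of Hspa1a, Hspa1b, Hspa4l, Hsph1 and Cryab under NaCl (1.99 to 2.89), and the deepest blue is Bag2 under mifepristone with NaCl (-2.21).

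NaCl was compared with no added NaCl, separately in vehicle and in mifepristone cells. The aim was to ask which chaperone genes change with added NaCl and whether they do so with the mutant induced. No other osmolyte was added in these groups, so tonicity cannot be told apart from an action of sodium or chloride. In mifepristone cells 14 of the 43 genes were higher and 15 lower with NaCl, which is 32.6% and 34.9%, where 24.5% and 34.2% of all tested genes were called higher and lower (58.7% in all). In vehicle cells 15 were higher and 14 lower (34.9% and 32.6%), where 25.2% and 31.5% of all tested genes were (56.7% in all). The lower shares lay close to those of all genes. Of changes of at least 1.5-fold, 10 genes (23.3%) were higher in mifepristone cells and 8 (18.6%) in vehicle cells, where 7.66% and 6.5% of all tested genes were. Falls of that size were seen for 3 genes (6.98%) and 2 genes (4.65%), beside 7.18% and 6.51% of all genes. The list was chosen with earlier results of these data known, so its shares beside those of all genes are descriptions with no test. Hspa1a and Hspa1b, which may share reads, count as 2 genes. The median log2 fold change of the 43 genes was -0.03 in mifepristone cells and 0.05 in vehicle cells, and that of all tested genes -0.06 and -0.02. With quantile normalization the split in vehicle cells was 19 higher and 11 lower (44.2% and 25.6%), where 26.5% and 32% of all tested genes were. Called higher in both kinds of cell were 13 genes (30.2%) and lower in both 11 (25.6%), where 15.5% and 21.4% of all tested genes were. In opposite directions 0 were called, where 3.05% of all tested genes were. These comparisons share no library.

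The largest rises under NaCl were in the HSP70 family. Hspa1b had 423, 398 and 423 FPKM with mifepristone and NaCl, 73.5, 74.3 and 80.5 FPKM with mifepristone alone, 244, 239 and 248 FPKM with vehicle and NaCl, and 39.9, 38.1 and 40.6 FPKM with vehicle alone. Hspa1a stood at 156, 148 and 159.8 FPKM with mifepristone and NaCl, 28.5, 29.1 and 28.96 FPKM with mifepristone alone, 91.3, 91.02 and 95.6 FPKM with vehicle and NaCl, and 14.6, 14.2 and 15.7 FPKM with vehicle alone. The 4 groups did not overlap for either gene, and each library with NaCl lay above every library without it. Hspa1b rose 5.42-fold with NaCl in mifepristone cells (log2 fold change 2.44, SE 0.048, limma adjusted p = 1.45e-11) and 6.11-fold in vehicle cells (log2 fold change 2.61, SE 0.048, limma adjusted p = 1.04e-11). Hspa1a rose 5.29-fold in mifepristone cells and 6.09-fold in vehicle cells (log2 fold changes 2.402 and 2.61, SE 0.044 and 0.044). These neighbouring genes encode the stress-inducible HSP70 and are nearly identical, so the counting may have split reads between them, and the value of each alone is uncertain. Hspa1a lies at chr17:34969190-34972156, minus strand, and Hspa1b at chr17:34956436-34959238, minus strand, in GENCODE M21 on GRCm38. The ratio of Hspa1b to Hspa1a FPKM stayed between 2.55 and 2.78 in all 12 libraries. Hspa1a also shares 564 exon bases with a predicted gene on the opposite strand.

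The promoters of Hspa1a and Hspa1b are printed because these genes moved together, and those of Hsph1 and Dnajb6 because both rose with NaCl and hold longer heat shock element matches. Each is the 150 bases before the RefSeq start site on GRCm38.p6, 5′ to 3′ on the gene's strand. Capitals mark the heat shock element in its form of 2 inverted units (GAANNTTC or TTCNNGAA), and in Dnajb6 a run of 3 units. For Hsph1 and Dnajb6, which have 2 listed start sites each, the upstream one was used. The minus strand was read for Hspa1a at chr17:34972157-34972306, Hspa1b at chr17:34959239-34959388 and Hsph1 at chr5:149636337-149636486, and the plus strand for Dnajb6 at chr5:29735748-29735897.
Hspa1a: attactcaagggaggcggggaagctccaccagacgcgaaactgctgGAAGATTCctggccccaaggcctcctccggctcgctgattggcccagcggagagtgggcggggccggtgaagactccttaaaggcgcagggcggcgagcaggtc
Hspa1b: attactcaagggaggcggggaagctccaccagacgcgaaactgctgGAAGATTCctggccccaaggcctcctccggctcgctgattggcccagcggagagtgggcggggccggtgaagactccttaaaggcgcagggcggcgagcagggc
Hsph1: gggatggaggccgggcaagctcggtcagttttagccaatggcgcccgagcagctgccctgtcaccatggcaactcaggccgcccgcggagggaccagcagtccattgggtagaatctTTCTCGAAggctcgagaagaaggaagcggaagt
Dnajb6: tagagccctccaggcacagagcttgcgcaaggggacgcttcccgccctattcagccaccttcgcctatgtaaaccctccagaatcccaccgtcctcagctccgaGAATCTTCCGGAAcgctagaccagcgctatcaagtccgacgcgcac
The Hspa1a and Hspa1b stretches matched at 149 of 150 bases, and their element begins 104 bases before the start site in both. Windows of 300 bases, 250 before the start and 50 after it, were searched on both strands, and 37 of the 44 genes had one. The form of 2 units lay in 19 of 50 chaperone windows (38%) and in 15.1% of all 32851 windows. The form of 3 units, in which a further unit follows in alternating orientation after a gap of 2 bases, lay in 7 of 50 (14%) and in 0.603% of all windows. Its genes were Chordc1, Dnajb6, Hspd1, Hspe1 and Hsph1. Hspd1 and Hspe1 are divergent neighbours whose windows overlap and hold the same run. Hsph1 and Dnajb6 each count with 2 overlapping windows that hold the same run, and that of Hsph1 lies after the start site. The tonicity element lay in 8 of 50 (16%) and in 4.96% of all windows, in Bag1, Dnajb2, Hspa2, Hspb1, Hspd1, Hspe1 and Hsph1. Both windows of Hsph1 hold the same tonicity match, as do the overlapping windows of Hspd1 and Hspe1, so the window counts include repeats. In Hspb1 and Hsph1 the tonicity element overlapped a heat shock element match. Of the 16 tested genes with the form of 2 units, 6 were called higher and 5 lower with NaCl in vehicle cells. Of the 20 tested genes without it, 4 were higher and 7 lower there. In mifepristone cells 7 and 5 of the 16 were, against 4 and 8 of the 20. Of all tested genes 25.2% and 31.5% were called higher and lower in vehicle cells, and 24.5% and 34.2% in mifepristone cells. Among the 16, Hspa1a and Hspa1b count separately despite their nearly identical printed promoters. Of the 5 with the form of 3 units, 2 were higher (Hsph1 and Dnajb6, printed here as the ones that rose), 1 lower (Hspe1) and 2 not called (Chordc1 and Hspd1). Of the 7 with the tonicity element, 2 were higher and 1 lower. A match is a run of letters, not a site shown to be bound. No match was found in the windows of Hspa4l and Bag2. The windows of Hspa8, Hspa9, Hspa13, Hsf1, Hsp90aa1, Hsp90ab1 and Cryab were not analysed here.

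**Figure D2:**
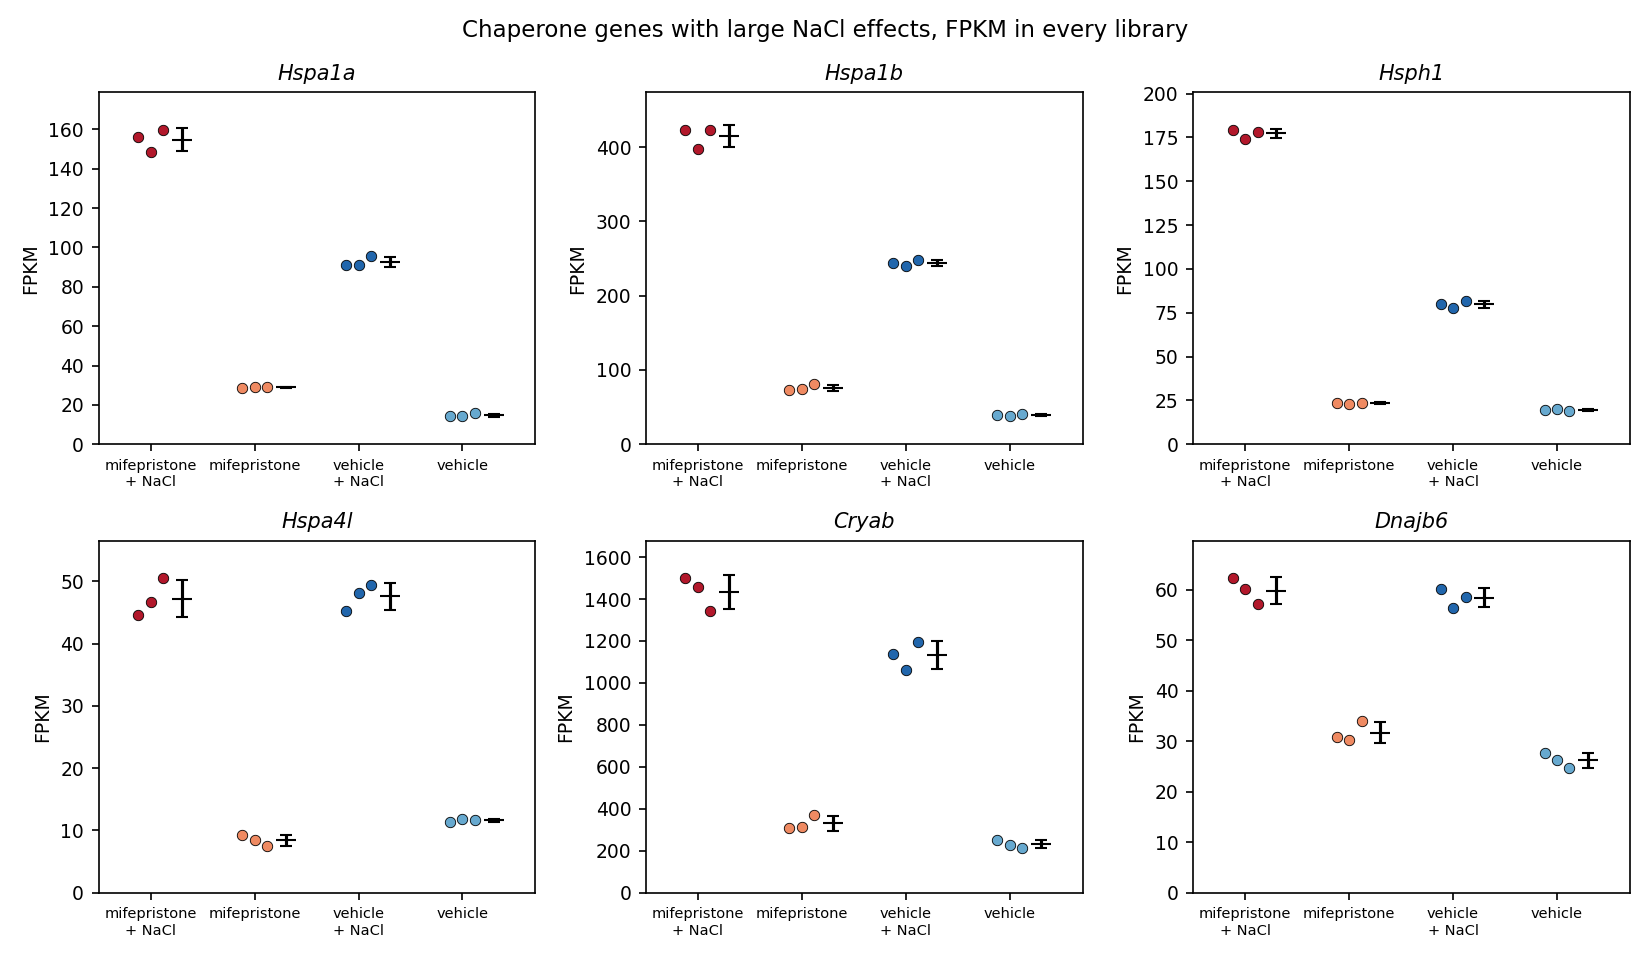
FPKM of Hspa1a, Hspa1b, Hsph1, Hspa4l, Cryab and Dnajb6 in every library (points), in 4 groups of 3, with the group mean and SD as bars beside the points. For all 6 genes every library with NaCl lies above every library without it, and for Hsph1 the libraries with mifepristone and NaCl (174 to 179 FPKM) lie far above those with vehicle and NaCl (77.5 to 81.8 FPKM).

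Hsph1 encodes HSP110, a large HSP70 relative that exchanges nucleotide on HSP70 and helps it dissolve aggregates. Hsph1 had 179, 174 and 178 FPKM with mifepristone and NaCl, 23.8, 22.9 and 23.8 FPKM with mifepristone alone, 79.9, 77.5 and 81.8 FPKM with vehicle and NaCl, and 19.7, 19.9 and 18.9 FPKM with vehicle alone. The 4 groups did not overlap. The gene lies at chr5:149614287-149636376, minus strand. With NaCl it rose 7.41-fold in mifepristone cells (log2 fold change 2.89, SE 0.036, limma adjusted p = 3.29e-13) and 4.01-fold in vehicle cells (log2 fold change 2.005, SE 0.036, limma adjusted p = 9.25e-12). Hspa4l, the osmotic stress protein named above, belongs to the same HSP110 group. Hspa4l had 44.6, 46.6 and 50.5 FPKM with mifepristone and NaCl, 9.28, 8.51 and 7.49 FPKM with mifepristone alone, 45.2, 48.1 and 49.4 FPKM with vehicle and NaCl, and 11.3, 11.8 and 11.7 FPKM with vehicle alone. Its NaCl groups overlapped each other and stood apart from both groups without NaCl. Hspa4l rose 5.36-fold with NaCl in mifepristone cells (log2 fold change 2.42, SE 0.070, limma adjusted p = 3.3e-10) and 3.97-fold in vehicle cells (log2 fold change 1.99, SE 0.070, limma adjusted p = 2.07e-09). Hspa4, the third HSP110 gene, moved less. Hspa4 had 93.3, 90.5 and 91.1 FPKM with mifepristone and NaCl, 59.7, 58.97 and 61.3 FPKM with mifepristone alone, 68.7, 69.4 and 68.5 FPKM with vehicle and NaCl, and 46.9, 45.5 and 44.01 FPKM with vehicle alone. Every group stood apart from the others. It rose 1.52-fold with NaCl in mifepristone cells (log2 fold change 0.61, SE 0.035, limma adjusted p = 6.98e-08) and 1.51-fold in vehicle cells (log2 fold change 0.59, SE 0.035, limma adjusted p = 1.13e-07).

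Hspa2, an HSP70 best known from the male germ line, was low. Hspa2 had 6.46, 6.65 and 6.85 FPKM with mifepristone and NaCl, 4.05, 4.42 and 4.203 FPKM with mifepristone alone, 10.8, 10.4 and 10.6 FPKM with vehicle and NaCl, and 7.26, 6.99 and 6.99 FPKM with vehicle alone. All libraries with NaCl lay above those without NaCl of the same treatment, while 2 groups that differ in both, mifepristone with NaCl and vehicle alone, lay close together. Hspa2 rose 1.52-fold with NaCl in mifepristone cells (log2 fold change 0.60, SE 0.039, limma adjusted p = 1.95e-07) and 1.46-fold in vehicle cells (log2 fold change 0.55, SE 0.039, limma adjusted p = 5.34e-07). Hspa13, an HSP70 of microsomes, rose by less than 1.5-fold in both (log2 fold changes 0.30 and 0.31). Hspa9, the mitochondrial HSP70, had a log2 fold change of -0.10 in mifepristone cells, which was not called, and rose in vehicle cells (log2 fold change 0.25, SE 0.044, limma adjusted p = 0.000553). Hspa14, a ribosome-associated HSP70, fell in mifepristone cells (log2 fold change -0.20) and had -0.02 in vehicle cells, not called.

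Hspa8 ran the other way. Hspa8 had 349, 356 and 339 FPKM with mifepristone and NaCl, 493, 497 and 546 FPKM with mifepristone alone, 424, 410.2 and 421 FPKM with vehicle and NaCl, and 718, 707 and 691 FPKM with vehicle alone. The 4 groups did not overlap, with vehicle alone highest and mifepristone with NaCl lowest. Hspa8 fell 1.47-fold with NaCl in mifepristone cells (log2 fold change -0.56, SE 0.051, limma adjusted p = 3.03e-06) and 1.69-fold in vehicle cells (log2 fold change -0.75, SE 0.051, limma adjusted p = 3.42e-07). With quantile normalization the fall in vehicle cells was 0.50 on the log2 scale (limma adjusted p = 6.95e-06). Hspa8 shares 262 exon bases with small nucleolar RNA genes annotated on its own strand. The FPKM of Hspa8, Hspa1a and Hspa1b summed to 917 ± 13.7 with mifepristone and NaCl, 617 ± 33.6 with mifepristone alone, 755 ± 12.6 with vehicle and NaCl, and 759.7 ± 12.3 with vehicle alone. In vehicle cells the sums with and without NaCl thus overlapped, with ranges of 740.6 to 764.7 and 747.7 to 772.3 FPKM, while the share of Hspa8 in them differed. That share was 37.9 ± 1.33% with mifepristone and NaCl, 83.0 ± 0.265% with mifepristone alone, 55.4 ± 0.4% with vehicle and NaCl, and 92.8 ± 0.306% with vehicle alone. By these FPKM values the constitutive gene held most of the transcripts of these 3 genes in every group but mifepristone with NaCl. How reads common to Hspa1a and Hspa1b were counted is not given. If they were left out, the sum of the pair is too low and the share of Hspa8 too high. These sums are descriptions with no test.

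**Figure D3:**
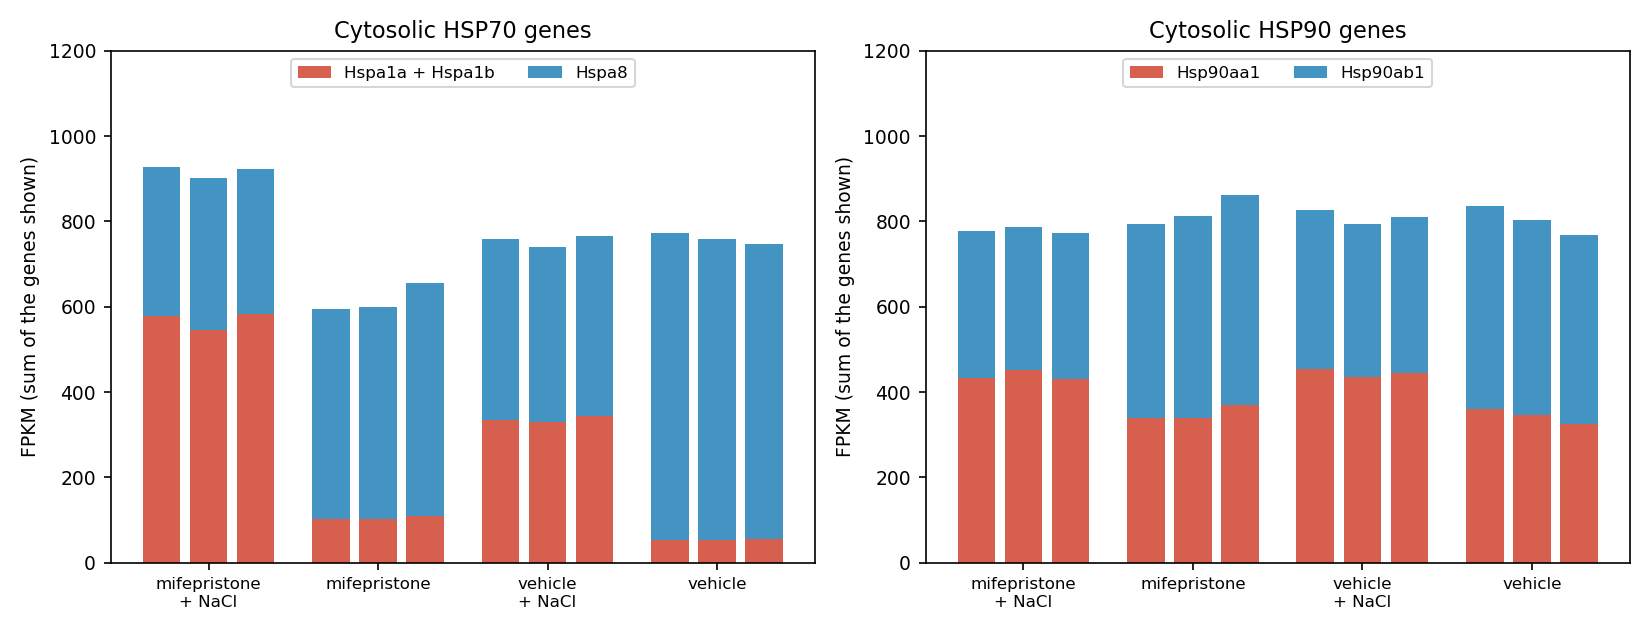
Stacked FPKM of the cytosolic HSP70 genes (left, Hspa1a plus Hspa1b in red and Hspa8 in blue) and HSP90 genes (right, Hsp90aa1 in red and Hsp90ab1 in blue) in each of the 12 libraries, by group. Hspa8 is the smaller part of the HSP70 bars with mifepristone and NaCl (37.9% of the sum) and the larger part in the other groups, and Hsp90aa1 is the larger part of the HSP90 bars in both NaCl groups (56.2% and 54.9%).

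Among the small heat shock proteins Cryab stood out. Cryab had 1499, 1457 and 1345 FPKM with mifepristone and NaCl, 307, 313 and 372 FPKM with mifepristone alone, 1139, 1063 and 1194 FPKM with vehicle and NaCl, and 251, 229.6 and 216 FPKM with vehicle alone. Every library with NaCl exceeded every library without it, and with NaCl Cryab had the highest FPKM of the 44 genes in both treatments. It rose 4.35-fold with NaCl in mifepristone cells (log2 fold change 2.12, SE 0.087, limma adjusted p = 4.96e-09) and 4.87-fold in vehicle cells (log2 fold change 2.29, SE 0.087, limma adjusted p = 3.68e-09). Cryab shares 252 exon bases with its divergent neighbour Hspb2, also a small heat shock protein gene. Hspb6, whose protein is found with alpha B-crystallin in muscle, rose by less than 1.5-fold in both (log2 fold changes 0.37 and 0.45). Hspb8, the partner of Bag3 in selective autophagy, fell in both (-0.34 and -0.19). Hspb1, the mouse HSP27 gene and a classic heat shock gene, was not called in any comparison as fitted over all libraries, but some alternatives called it. One was leaving out mifepristone C, which gave 0.29 with NaCl in mifepristone cells (limma adjusted p = 0.00166) and -0.16 with mifepristone without NaCl (0.0414). Its log2 fold change with NaCl was 0.17 in mifepristone cells (95% interval -0.03 to 0.38) and 0.11 in vehicle cells (-0.09 to 0.31) over all libraries.

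Of the 6 tested J-domain genes, Dnajb6 and Dnajb4 rose with NaCl in both treatments. Dnajb6 encodes a suppressor of polyglutamine aggregation. Dnajb6 had 62.3, 60.1 and 57.1 FPKM with mifepristone and NaCl, 30.8, 30.3 and 34.05 FPKM with mifepristone alone, 60.2, 56.4 and 58.6 FPKM with vehicle and NaCl, and 27.7, 26.3 and 24.7 FPKM with vehicle alone. The NaCl groups overlapped each other and lay above both groups without NaCl. It rose 1.88-fold with NaCl in mifepristone cells (log2 fold change 0.91, SE 0.057, limma adjusted p = 1.66e-07) and 2.2-fold in vehicle cells (log2 fold change 1.14, SE 0.057, limma adjusted p = 3.46e-08). Dnajb4 had 9.305, 9.33 and 8.65 FPKM with mifepristone and NaCl, 5.31, 5.18 and 5.28 FPKM with mifepristone alone, 8.58, 7.89 and 8.18 FPKM with vehicle and NaCl, and 5.04, 5.003 and 4.68 FPKM with vehicle alone. No library with NaCl reached down to those without it. Dnajb4, an HSP40 of the same subfamily, rose 1.67-fold in mifepristone cells (log2 fold change 0.74, SE 0.044, limma adjusted p = 1.01e-07) and 1.61-fold in vehicle cells (log2 fold change 0.69, SE 0.044, limma adjusted p = 2.34e-07). Dnajb1, the main heat-inducible HSP40, was not called in any comparison over all libraries, with log2 fold changes under NaCl of 0.03 in mifepristone cells (95% interval -0.10 to 0.15) and 0.04 in vehicle cells (-0.08 to 0.16). Without mifepristone C its log2 fold change with NaCl in mifepristone cells was 0.10 (limma adjusted p = 0.0277), and with mifepristone without NaCl -0.14 (0.005). Dnaja1, a farnesylated HSP40, fell with NaCl in mifepristone cells (log2 fold change -0.22), whereas Dnaja2 and Dnajb2 were not called under NaCl over all libraries. In vehicle cells, leaving out mifepristone C called Dnaja2 higher with NaCl (0.14, limma adjusted p = 0.0246) and Dnajb2 lower (-0.07, 0.0407). Quantile normalization also called Dnaja2 higher there (0.19, limma adjusted p = 0.00011).

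In the HSP90 group the inducible and constitutive genes moved apart under NaCl. Hsp90aa1 rose in mifepristone cells (log2 fold change 0.33, SE 0.054, limma adjusted p = 0.000366) and in vehicle cells (log2 fold change 0.37, SE 0.054, limma adjusted p = 0.000158). Hsp90ab1 fell in mifepristone cells (log2 fold change -0.47, SE 0.048, limma adjusted p = 7.23e-06) and in vehicle cells (log2 fold change -0.33, SE 0.048, limma adjusted p = 0.000156). The fall in vehicle cells was not called after quantile normalization (log2 fold change -0.03, limma adjusted p = 0.667). Hsp90aa1 made up 56.2 ± 0.954% of the FPKM of the pair with mifepristone and NaCl, 42.4 ± 0.551% with mifepristone alone, 54.9 ± 0.2% with vehicle and NaCl, and 42.8 ± 0.473% with vehicle alone, while their sum stayed between 767.9 and 862.9 FPKM in all libraries. Fkbp4, an immunophilin that joins HSP90 to steroid receptors, changed most in this group. Fkbp4 had 40.6, 40.01 and 38.2 FPKM with mifepristone and NaCl, 69.5, 71.8 and 79.99 FPKM with mifepristone alone, 53.1, 51.3 and 52.6 FPKM with vehicle and NaCl, and 102, 93.8 and 96 FPKM with vehicle alone. The 4 groups did not overlap. Fkbp4 fell 1.85-fold with NaCl in mifepristone cells (log2 fold change -0.89, SE 0.055, limma adjusted p = 1.28e-07) and 1.85-fold in vehicle cells (log2 fold change -0.89, SE 0.055, limma adjusted p = 1.68e-07). Ahsa1, the activator of the HSP90 ATPase, fell in both (log2 fold changes -0.40 and -0.44). Ptges3, the p23 co-chaperone, fell in mifepristone cells (-0.29) and was not called in vehicle cells (-0.13). Stip1, which bridges HSP70 and HSP90, was not called in any comparison over all libraries, but quantile normalization called it higher with NaCl in vehicle cells (log2 fold change 0.26, limma adjusted p = 0.000312) and with mifepristone without NaCl (0.22, 0.000826). Without mifepristone C it was called higher with NaCl in mifepristone cells (0.11, limma adjusted p = 0.0234) and in vehicle cells (0.09, 0.0262). Chordc1, which encodes an HSP90 partner with zinc-binding CHORD domains, was not called under NaCl. Cacybp, a partner of ubiquitin ligases, and the mitochondrial HSP90 gene Trap1 had called falls of 0.07 to 0.20 on the log2 scale, and those of Cacybp were lost without single libraries (limma adjusted p = 0.112 in mifepristone cells without replicate C of mifepristone with NaCl, and 0.124 in vehicle cells without vehicle A). Trap1's fall in vehicle cells was lost without any of 11 single libraries (up to 0.12, without replicate B of vehicle with NaCl). Median-ratio scaling and quantile normalization also ended this call (log2 fold changes -0.045 and -0.014, limma adjusted p = 0.171 and 0.784).

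The chaperonins fell or were not called over all libraries. Of the 5 CCT genes all were called lower with NaCl in vehicle cells, by 0.16 to 0.37 on the log2 scale, where 31.5% of all tested genes were. Cct5 and Tcp1 were also called lower in mifepristone cells (log2 fold changes -0.28 and -0.15), where 34.2% of all tested genes were. Cct4, Cct6a and Cct7, CCT genes outside the 44, were called lower in vehicle cells too (-0.28, -0.26 and -0.22). In mifepristone cells these genes outside the 44 were not called. In vehicle cells the calls of Cct8 and Tcp1 were lost without any of 8 and any of 4 single libraries. Their limma adjusted p rose to 0.157 and 0.0885, both without vehicle A. That of Tcp1 in mifepristone cells was lost without any of 3 (up to 0.108, without replicate C of mifepristone with NaCl). In vehicle cells quantile normalization ended the call of Cct2 (log2 fold change -0.05, limma adjusted p = 0.292). It left smaller called falls there for Cct5 and Cct8 (-0.14 and -0.07). Hspe1, the lid of the mitochondrial chaperonin, fell in both treatments (log2 fold changes -0.35 and -0.40). Its barrel subunit Hspd1, transcribed from the shared promoter region, was not called under NaCl over all libraries (-0.07 and 0.13). Some alternatives called Hspd1 higher with NaCl in vehicle cells, among them quantile normalization (0.28, limma adjusted p = 0.000193) and median-ratio scaling (0.16, 0.0115).

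Of the heat shock factor genes, Hsf2 was called in all 4 comparisons. Hsf1 had 44.2, 42.95 and 43.2 FPKM with mifepristone and NaCl, 43.7, 44.9 and 44.6 FPKM with mifepristone alone, 45.9, 44.3 and 43.9 FPKM with vehicle and NaCl, and 43.1, 38 and 40.1 FPKM with vehicle alone. All 12 values lay between 38.0 and 45.9 FPKM, with vehicle B and C lowest and the other libraries close together. Hsf2 had 21.4, 21.1 and 21.1 FPKM with mifepristone and NaCl, 13.5, 14 and 14.3 FPKM with mifepristone alone, 18.4, 17.3 and 18.3 FPKM with vehicle and NaCl, and 16.6, 15.6 and 14.6 FPKM with vehicle alone. The 4 Hsf2 groups did not overlap. Hsf2 encodes a factor that binds the same elements as HSF1. With NaCl Hsf2 rose 1.5-fold in mifepristone cells (log2 fold change 0.59, SE 0.046, limma adjusted p = 8.34e-07) and 1.15-fold in vehicle cells (log2 fold change 0.20, SE 0.046, limma adjusted p = 0.00312). Hsf1 was not called with NaCl in mifepristone cells (log2 fold change -0.03) and was called higher in vehicle cells (0.15, limma adjusted p = 0.0146, and 0.0666 without vehicle B). HSF1 acts mainly after activation of the protein, which RNA levels do not measure.

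Mifepristone was compared with vehicle, without and with NaCl, to ask which chaperone genes change when the mutant is induced. With NaCl 13 of the 43 genes were called higher and 11 lower (30.2% and 25.6%), where 26.8% and 31.9% of all tested genes were (58.7% in all). Without NaCl 16 were higher and 11 lower (37.2% and 25.6%), where 28.3% and 31.5% were (59.7% in all). Rises of at least 1.5-fold numbered 4 (9.3%) with NaCl and 3 (6.98%) without it, close to the 8.94% and 8.93% of all genes, and falls of that size 2 in each (4.65%), beside 7.83% and 7.19% of all genes. The members' medians were -0.01 with NaCl and 0.05 without it on the log2 scale, and those of all genes -0.03 and -0.01. The genes with changes of at least 1.5-fold were Bag3, Hspa1a, Hspa1b, Hsph1, Bag2 and Hspa2. Without vehicle A, the count of lower genes in the comparison without NaCl was 7 (16.3%), where 28.3% of all tested genes were lower.

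**Figure D4:**
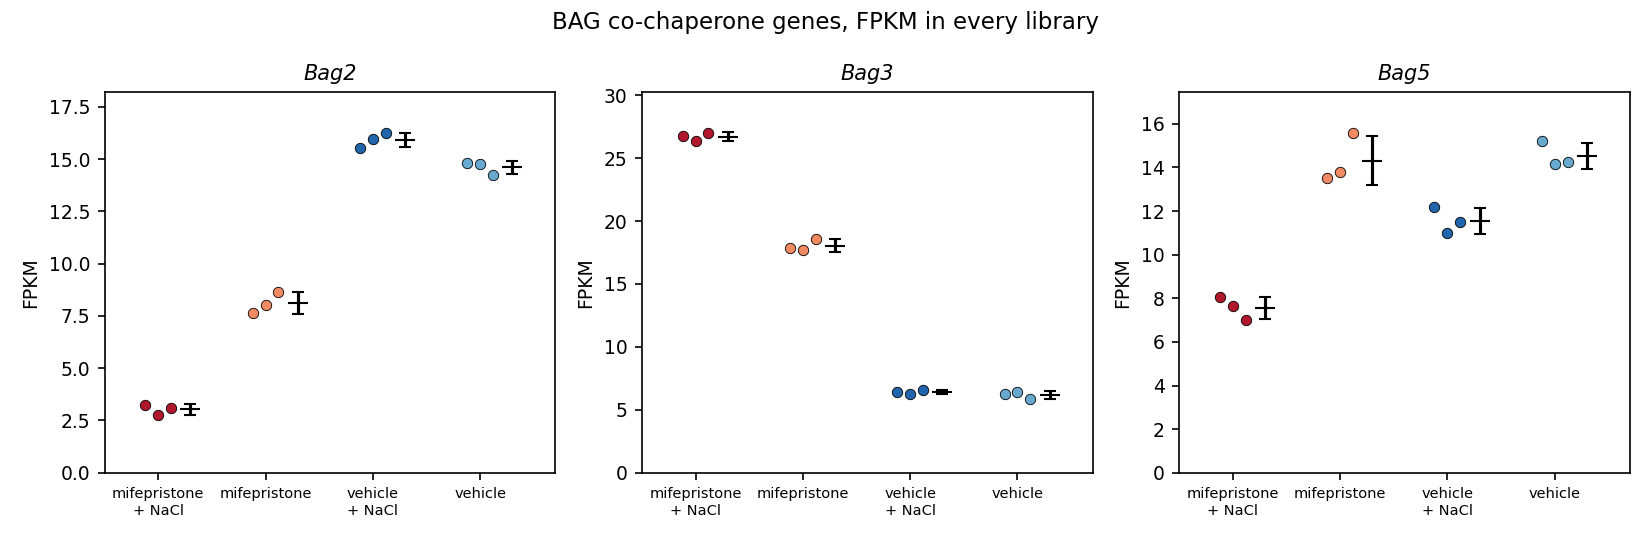
FPKM of the BAG co-chaperone genes Bag2, Bag3 and Bag5 in every library (points), in 4 groups of 3, with the group mean and SD as bars beside the points. Bag2 falls to about 3 FPKM with mifepristone and NaCl (2.76 to 3.26), Bag3 is higher in both mifepristone groups, and Bag5 lies lowest with mifepristone and NaCl (7.02 to 8.04).

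The 2 largest changes under mifepristone were in BAG genes and had opposite signs. Bag3, at chr7:128523616-128546981, plus strand, encodes a co-chaperone that couples HSP70 to small heat shock proteins and to autophagy. Bag3 had 26.8, 26.3 and 27.01 FPKM with mifepristone and NaCl, 17.8, 17.7 and 18.6 FPKM with mifepristone alone, 6.41, 6.29 and 6.54 FPKM with vehicle and NaCl, and 6.24, 6.45 and 5.83 FPKM with vehicle alone. Both mifepristone groups lay above both vehicle groups, which overlapped. Bag3 rose 3.94-fold with mifepristone in the presence of NaCl (log2 fold change 1.98, SE 0.039, limma adjusted p = 1.51e-11) and 2.78-fold in its absence (log2 fold change 1.47, SE 0.039, limma adjusted p = 1.55e-10). With NaCl it rose in mifepristone cells (log2 fold change 0.55, SE 0.039, limma adjusted p = 3.74e-07) and was not called in vehicle cells (log2 fold change 0.05, 95% interval -0.04 to 0.14). Bag2, at chr1:33745484-33757795, minus strand, encodes an HSP70 exchange factor that inhibits the ubiquitin ligase CHIP. Bag2 had 3.26, 2.76 and 3.101 FPKM with mifepristone and NaCl, 7.66, 8.01 and 8.67 FPKM with mifepristone alone, 15.6, 15.9 and 16.3 FPKM with vehicle and NaCl, and 14.8, 14.8 and 14.2 FPKM with vehicle alone. Each vehicle library lay above each mifepristone library, and mifepristone with NaCl was lowest. Bag2 fell 4.64-fold with mifepristone in the presence of NaCl (log2 fold change -2.21, SE 0.057, limma adjusted p = 9.69e-11) and 1.76-fold in its absence (log2 fold change -0.81, SE 0.057, limma adjusted p = 3.12e-07). With NaCl it fell 2.43-fold in mifepristone cells (log2 fold change -1.28, SE 0.057, limma adjusted p = 8.84e-09) and was not called in vehicle cells (log2 fold change 0.12, 95% interval -0.01 to 0.24). It shares 131 exon bases with an annotated gene on the opposite strand.

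Bag5, whose protein holds several BAG domains, was also lowest with both agents. Bag5 had 8.04, 7.63 and 7.02 FPKM with mifepristone and NaCl, 13.5, 13.8 and 15.6 FPKM with mifepristone alone, 12.2, 10.99 and 11.5 FPKM with vehicle and NaCl, and 15.2, 14.2 and 14.2 FPKM with vehicle alone. The groups without NaCl overlapped, and mifepristone with NaCl stood below all others. With mifepristone Bag5 fell in the presence of NaCl (log2 fold change -0.58, SE 0.064, limma adjusted p = 1.42e-05) and was not called in its absence (log2 fold change -0.03, 95% interval -0.17 to 0.12). With NaCl it fell 1.84-fold in mifepristone cells (log2 fold change -0.88, SE 0.064, limma adjusted p = 5.59e-07) and 1.25-fold in vehicle cells (log2 fold change -0.32, SE 0.064, limma adjusted p = 0.00151). Hspbp1, another HSP70 exchange factor, was not called in any comparison or under any of the 23 alternatives. Bag1, the founding member of the family, was not called over all libraries, but without mifepristone C it was called higher with NaCl in mifepristone cells (log2 fold change 0.27, limma adjusted p = 0.00163) and lower with mifepristone without NaCl (-0.22, 0.0048).

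In the HSP70 family, Hspa1b rose 1.7-fold with mifepristone in the presence of NaCl (log2 fold change 0.76, SE 0.048, limma adjusted p = 1.21e-07) and 1.91-fold in its absence (log2 fold change 0.94, SE 0.048, limma adjusted p = 2.4e-08). Hspa1a rose in both as well, with log2 fold changes of 0.74 and 0.94. Hsph1 rose 2.22-fold with mifepristone in the presence of NaCl (log2 fold change 1.15, SE 0.036, limma adjusted p = 3.76e-10) and 1.2-fold in its absence (log2 fold change 0.26, SE 0.036, limma adjusted p = 6.85e-05). Hspa4 rose in both (log2 fold changes 0.41 and 0.40). Hspa2 fell 1.55-fold in the presence of NaCl (log2 fold change -0.63, SE 0.039, limma adjusted p = 9.96e-08) and 1.61-fold in its absence (log2 fold change -0.68, SE 0.039, limma adjusted p = 5.67e-08). Hspa8 fell in both, by 0.27 on the log2 scale with NaCl and 0.46 without it. With quantile normalization these falls were smaller (log2 fold changes -0.17 and -0.19, limma adjusted p = 0.0108 and 0.00538). Hspa4l was not called with NaCl (log2 fold change -0.01, 95% interval -0.17 to 0.14) and fell without it (log2 fold change -0.44, SE 0.070, limma adjusted p = 0.000235).

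The other roles held smaller changes, all under 1.5-fold. Cryab rose in both salt conditions (log2 fold changes 0.34 with NaCl and 0.51 without it), and Hspb6 fell in both (-0.39 and -0.31). Dnaja1 rose in both (0.25 and 0.40), Dnajb2, a neuronal J-domain gene, fell in both (-0.20 and -0.27), and Dnajb6 and Dnaja2 rose without NaCl (0.27 and 0.22). With NaCl the values of Dnajb6 and Dnaja2 were 0.03 and 0.02, not called. Fkbp4 fell in both (-0.40 and -0.40). Hsp90aa1 and Hsp90ab1 were called in neither over all libraries (log2 fold changes -0.02 and -0.10 with NaCl, 0.02 and 0.05 without it). Quantile normalization called both higher without NaCl (0.30 and 0.35, limma adjusted p = 5.71e-05 and 6.16e-05). With NaCl, Hsp90ab1 was called lower without mifepristone C (-0.10, limma adjusted p = 0.0445) and with library quality weights (-0.10, 0.00745). Tcp1, the first subunit of CCT, rose in both (0.22 and 0.21), and Cct2 rose with NaCl (0.27). In all, 10 genes (23.3%) were called higher in both salt conditions and 7 (16.3%) lower in both, where 18.6% and 21.3% of all tested genes were. Cacybp is among the 10, and its calls were lost without any of 6 single libraries with NaCl (limma adjusted p up to 0.135, without replicate A of mifepristone with NaCl) and any of 7 without NaCl (up to 0.157, without vehicle C). Over the 4 comparisons, Cryab, Hspa13, Hspa1a, Hspa1b, Hspa4 and Hsph1 were called higher in each, and Fkbp4, Hspa8 and Trap1 lower in each (14% and 6.98% of the 43, where 4.61% and 7.47% of all tested genes were). The 4 comparisons use the same libraries, so calls in each are not separate results. Hspa1a and Hspa1b, which may share reads, count as separate genes in the 14%. The call of Trap1 with mifepristone without NaCl was lost without any of 11 single libraries (limma adjusted p up to 0.111, without mifepristone B). Its call with NaCl in vehicle cells was likewise lost without any of 11 (up to 0.12).

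For 3 genes (6.98%) the mifepristone calls had opposite signs in the 2 salt conditions, where 2.98% of all tested genes did, and each of the 3 lost a call when a single library was left out. Hsf2 was higher with mifepristone in the presence of NaCl (log2 fold change 0.23, SE 0.046, limma adjusted p = 0.00111) and lower in its absence (log2 fold change -0.15, SE 0.046, limma adjusted p = 0.0129). The lower call was lost without vehicle A (limma adjusted p = 0.0509). Hspa9 was lower with mifepristone in the presence of NaCl (log2 fold change -0.20, SE 0.044, limma adjusted p = 0.00194) and higher in its absence (log2 fold change 0.15, SE 0.044, limma adjusted p = 0.0137), and the higher call was lost without vehicle C (limma adjusted p = 0.0517). Hspa14 was lower in the presence of NaCl (log2 fold change -0.11) and higher in its absence (0.07). The higher call was lost without any of 11 single libraries (limma adjusted p up to 0.155, without vehicle B).

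The interaction asks whether the mifepristone effect differs between the salt conditions, which is the same as asking whether the NaCl effect differs between treatments. It was called for 12 of the 43 genes, 5 positive and 7 negative (11.6% and 16.3%), where 13.6% and 17.5% of all tested genes were called positive and negative (31.1% in all), so the shares lay near those of all genes. With quantile normalization 4 were positive and 13 negative (9.3% and 30.2%), where 17% and 17.2% of all tested genes were. A positive value means a more positive log2 fold change with NaCl in mifepristone than in vehicle cells. Beyond 1.5-fold stood Hsph1, 1 positive gene where 3.6% of all tested genes were that positive, and Bag2, 1 negative gene where 3.7% were that negative. The log2 interaction of Hsph1 was 0.88 (SE 0.050, limma adjusted p = 5.47e-07), from NaCl effects of 2.89 in mifepristone cells and 2.005 in vehicle cells. That of Bag2 was -1.403 (SE 0.080, limma adjusted p = 5.85e-07), from -1.28 in mifepristone cells and 0.12 in vehicle cells. Smaller called values were 0.50 for Bag3, -0.56 for Bag5, 0.43 for Hspa4l, 0.39 for Hsf2 and -0.35 for Hspa9. For Hspa1a it was -0.20 (limma adjusted p = 0.0286), lost without any of 6 single libraries (up to 0.0756, without vehicle B) and with quantile normalization (-0.115, 0.235). Its near-copy Hspa1b, at -0.17 (limma adjusted p = 0.0796), was not called over all libraries. Library quality weights called Hspa1b (-0.205, limma adjusted p = 0.0141). The interaction of Cryab, -0.17 (95% interval -0.44 to 0.11), was not called either, but quantile normalization called it (-0.436, limma adjusted p = 0.000439). Without vehicle B, or without replicate A of mifepristone with NaCl or replicate C of vehicle with NaCl, 4 negative interactions were called (9.3%, where 13.9% to 14.6% of all tested genes were), and without mifepristone C 8 positive ones (18.6%, where 22.5% were).

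**Figure D5:**
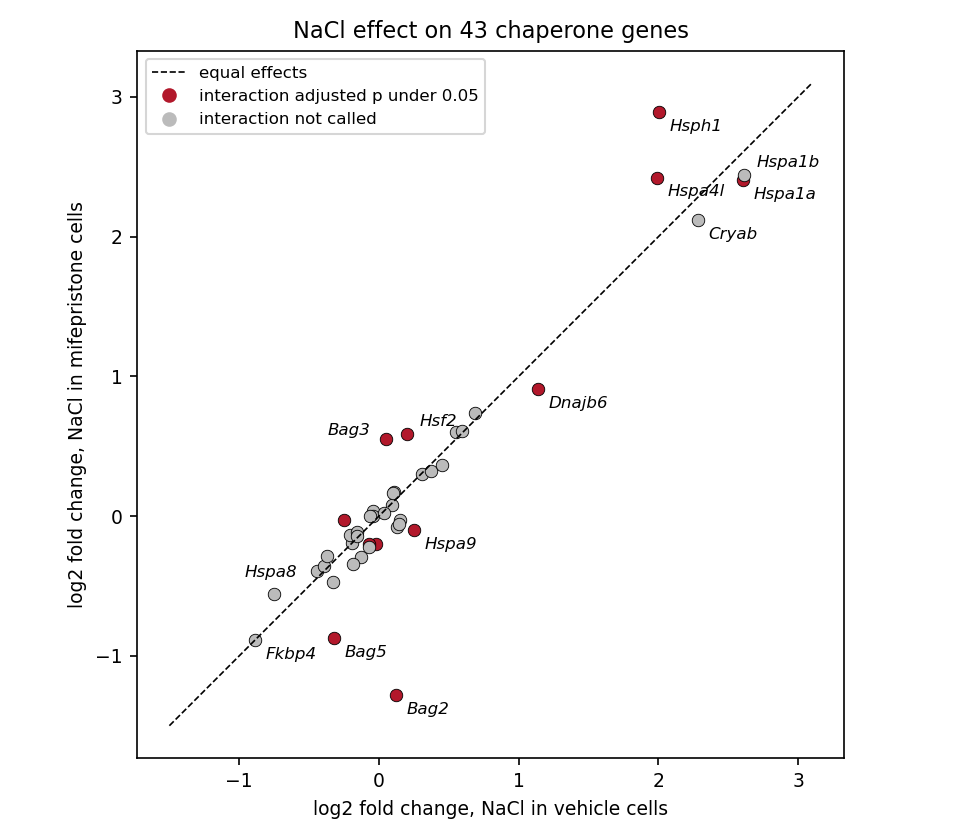
Log2 fold change with NaCl in mifepristone cells (vertical axis) against that in vehicle cells (horizontal axis) for the 43 tested genes, with the dashed line marking equal effects and red points the 12 genes whose interaction was called. Hsph1, Hspa4l, Bag3 and Hsf2 lie above the line and Bag2 and Bag5 below it, while Hspa1a, Hspa1b and Cryab lie at the upper right close to it.

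The authors' deposited tables hold their own comparisons and a mark for genes near a ChIP peak. In the authors' deposited table the mutant effect on Bag3 was 1.54 (adjusted p = 2.7e-21) and the interaction of Bag2 -1.54 (adjusted p = 5.35e-06). All other members had an adjusted p of 1 for both in the authors' deposited table, where the test may ask for a minimum fold change. The label of the mutant effect names no salt condition. The authors' NaCl comparisons gave low adjusted p for further members, with Hsph1 at 2.03 in control and 2.91 in mutant cells. In control cells they also held Stip1 (0.09, authors' adjusted p = 0.0227) and Hspd1 (0.13, 0.0353), not called here over all libraries. The mark was set for 13 of the 44 chaperone genes (29.5%), Bag2 and Hsph1 among them and Bag3 not, and for 28.4% of all tested genes.

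A further list of 49 chaperone genes outside the 44 had 41 tested. With NaCl 9 were higher and 8 lower in mifepristone cells (22% and 19.5%, beside 24.5% and 34.2% of all tested genes), and 13 higher and 9 lower in vehicle cells (31.7% and 22%, beside 25.2% and 31.5%). With mifepristone 9 were higher and 13 lower in the presence of NaCl (22% and 31.7%, beside 26.8% and 31.9%), and 5 higher and 10 lower in its absence (12.2% and 24.4%, beside 28.3% and 31.5%). The largest changes were those of Hspb2, which rose 2.43-fold with NaCl in mifepristone cells (log2 fold change 1.28, SE 0.107, limma adjusted p = 1.52e-06) and 2.2-fold in vehicle cells (log2 fold change 1.14, SE 0.107, limma adjusted p = 5.37e-06). Its overlap with Cryab on the opposite strand means that reads of both genes cannot be told apart if counting ignored strand. With NaCl, the prefoldin subunit Pfdn2 rose in mifepristone and in vehicle cells (log2 fold changes 0.72 and 0.32), as did Sgtb, a co-chaperone of HSP70 (0.61 and 0.46). Hspb11, a protein of intraflagellar transport, had -0.14 in mifepristone cells, not called, and fell in vehicle cells (-0.68). With mifepristone, Unc45a, a myosin chaperone, rose in the presence and in the absence of NaCl (log2 fold changes 0.45 and 0.68), as did Pdcl3, a partner of CCT (0.70 and 0.24). The J-domain gene Dnajc21 rose in the presence of NaCl (0.61) and had 0.15 in its absence, not called.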

How the data were processed

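The 12 libraries were poly(A) TruSeq libraries, as the labels state. Per the submitters' processing notes, the genome was GRCm38 (mm10) and the tools were DESeq2 1.12.3, STAR 2.4.2a, Trimmomatic 0.32 and SAMtools 1.0. How reads were counted, on which annotation and strand, is not given in the sources used here. The authors deposited FPKM values per library. Their deposited comparison tables give, per the file headers, an average signal over all libraries in normalized counts. The log2 changes and the adjusted p-value of each comparison are the authors' too. The 6 control columns carry the vehicle titles. The 6 columns named for the mutant were assigned to mifepristone by NaCl part, letter and knowledge of the study. The number of columns without a sample was 0.

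FPKM scaled by the authors' mean signal came out as whole reads, within 0.05, for 100.0% of values. Reads per library set the precision of low values, and voom on these reads was an alternative. Tests were run in limma 3.58.1 under R 4.3.3 (trended and robust empirical Bayes) on log2(FPKM + 0.5) with 4 group means, 8 residual degrees of freedom and 14044 genes, tested on simulated data. The minimum was 1 FPKM in 3 libraries. Mifepristone was set against vehicle in each salt condition, NaCl against none in each treatment, and both in an interaction. Values per library are given for members called with at least 1.5-fold in any comparison and for the heat shock factors, and other genes by ranges and counts. The members, roles and lists were chosen with earlier results of these data known. Promoters are from RefSeq (GRCm38.p6), gene positions from GENCODE M21. Alternatives were other pseudocounts, filters, scalings, weights, thresholds, a replicate block and left-out libraries. Scripts ran in Python 3.11.15 with pandas 2.3.3, numpy 2.4.6 and scipy 1.17.1, and figures drawn with matplotlib 3.10.9.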

Additional observations from a re-analysis of the deposited data

Results flagged for a closer look

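For 12 genes the effect of mifepristone differed between the salt conditions by the interaction test (limma, adjusted p under 0.05, n = 3 per group, 31.1% of all tested genes called). On the log2 scale, where a positive value means a more positive NaCl effect in mifepristone than in vehicle cells, the values were 0.88 for Hsph1, 0.50 for Bag3, 0.43 for Hspa4l, 0.39 for Hsf2 and 0.22 for Cct2. The negative values were -1.40 for Bag2, -0.56 for Bag5, -0.35 for Hspa9, -0.23 for Dnajb6, -0.20 for Hspa1a, -0.18 for Hspa14 and -0.13 for Trap1. The adjusted p of Dnajb6 lay just under 0.05 and passed it without any of 10 single libraries (0.107 without replicate A of vehicle with NaCl). The calls of Cct2 and Trap1 were lost without 9 and 10 single libraries (up to 0.115 without mifepristone B and 0.0822 without replicate A of mifepristone with NaCl).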

How the results depend on the processing

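All 36 called values of at least 1.5-fold were kept under each of 23 alternatives, and 59 of the 85 called values under 1.5-fold were. Of the 94 values not called, 48 stayed so. With quantile normalization the values of Cct5 changed sign, to 0.008 with mifepristone without NaCl and -0.089 for the interaction, and the count of negative interactions was 13 (30.2%, beside 17.2% of all tested genes). It was 4 with voom and 4 at an adjusted p under 0.01 (9.3% in both, beside 14.1% and 10.5%), where 7 genes (16.3%, beside 25%) were lower with mifepristone without NaCl. Without both vehicle A and mifepristone C, 8 positive and 11 negative interactions were called (18.6% and 25.6%, beside 20.3% and 25.7%). Leaving out each library gave 11 to 15 higher and 10 to 12 lower genes for mifepristone with NaCl. The shares of all tested genes were 23% to 29.5% and 28.2% to 36.3%, and follow in brackets below. Without NaCl the counts were 12 to 16 and 7 to 15 (25.7% to 30.7% and 28.3% to 34.7%). For NaCl in mifepristone cells they were 14 to 18 and 13 to 16 (21% to 26.3% and 30.4% to 35.6%). In vehicle cells they were 14 to 18 and 10 to 15 (21.3% to 29% and 27.4% to 35%). Interactions numbered 4 to 8 positive and 4 to 7 negative (10.4% to 22.5% and 13.7% to 25.7%). Deviations from the group mean of 18 same-letter pairs correlated from -0.50 to 0.29, with 6 over 0.1. These deviations also ran along transcript length, so they cannot decide whether the same letters pair the libraries. The replicate block gave 12 higher and 10 lower for mifepristone with NaCl (27.9% and 23.3%, beside 25.4% and 30% of all tested genes). Without NaCl the counts were 14 and 8 (32.6% and 18.6%, beside 26.9% and 29.9%). For NaCl in mifepristone cells they were 14 and 14 (32.6% each, beside 23.1% and 31.7%). In vehicle cells they were 15 and 11 (34.9% and 25.6%, beside 23.4% and 29.9%). Interactions numbered 4 positive and 5 negative (9.3% and 11.6%, beside 11.8% and 14.7%). The cause of these shifts was not tested. No scaling moved the median of all genes by over 0.1. Dnaja4, with 10 to 45 reads per library, is limited by depth.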
